A study of Mus musculus with 27 samples.

Results

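The genes described here encode ubiquitin-pathway enzymes and the proteasome subunits that act after them. They are the genes on 1 of the study's 2 array platforms whose annotated symbol starts with Usp, Ube2, Uba plus a digit, Uchl, Psma, Psmb, Psmc or Psmd plus a digit. Usp9x, Usp9y, Usp18, Usp21, Uba1, Uba1y, Psmb8, Psmb9 and Psmb10 were left out by name. Counting only probe sets annotated with 1 symbol, this gave 84 of the 8252 genes named on these arrays, measured by 113 probe sets. Another 3 sets with several symbols, at least 1 of which starts as above, were not counted. A probe set is the group of short DNA probes whose joint brightness, the intensity, stands for the level of 1 transcript or of closely similar ones. The rule reads gene names and no measured value, but it was set with earlier results of these data known. It also took in Psmc3ip, which shares a prefix with the proteasome ATPases and is not a subunit.

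The study set whole-brain RNA of DBA mice against that of C57 mice. The DBA group held 4 mice, labelled DBA/2J, whose sex the labels do not give. The C57 group held 5 males, which the labels write as C57BL/2. All were 10 weeks old and naive, no allele or agent is named for either strain, and each number in a sample title was taken as 1 animal with 1 array. Nothing beyond that numbering shows that the arrays are separate animals, so p-values measure the spread between these samples. Every sample's description, DBA samples included, also carries the alternative name C57 1, so the strain of each sample rests on its title. The brain was taken whole, so fewer cells of a type and less RNA per cell cannot be told apart. A strain difference in RNA level and one in the sequence under the probes cannot be told apart either, and probe sequences were not analysed here.

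Ubiquitin is a small protein that cells attach to other proteins, often as a chain that marks them for destruction. An E1 enzyme activates it, an E2 enzyme carries it, and an E3 ligase picks the target, while deubiquitinases such as the Usp and Uchl proteins take it off again. The proteasome is the machine that degrades marked proteins: its 20S core is built of alpha rings that gate the entrance and beta rings that hold the cutting sites, and its 19S cap binds, unfolds and feeds in the substrate with a ring of ATPases. In neurons the pathway is known for clearing damaged proteins and for remodelling synapses.

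Median intensity on the 9 arrays lay between 160 and 198, and the correlation of 1 array with another, taken over genes that are no independent replicates, was 0.946 to 0.970. The neuronal marker Snap25 read 15350 to 21136 in DBA and 14793 to 18630 in C57 brains. The liver marker Alb read 12.7 to 74.5 in DBA and 10.1 to 83.1 in C57 brains, near the dim end of the arrays. None of the 14 neuron markers tested was called different between the strains (limma, Benjamini-Hochberg adjusted p under 0.05). At an unadjusted limma p under 0.05, 2 of 17 neuron sets were higher and 1 was lower in DBA, against 5.88% and 6.29% of all sets tested. Of 7 oligodendrocyte genes tested, 1 lay above 0 and 6 below at their brightest set. Mobp was called lower at 99046_at (log2 difference -0.84 ± 0.12, adjusted p = 0.00416) and not at its other sets (-0.11, -0.22 and -0.35). At an unadjusted limma p under 0.05, 0 of 13 oligodendrocyte sets were higher and 5 were lower in DBA. The summed intensity of the oligodendrocyte list was 32209 to 38019 in DBA and 33630 to 46083 in C57 brains. Of 9 microglia genes, 3 lay above 0 and 6 below at their brightest set, and 2, C1qb and C1qc, were called lower. At an unadjusted limma p under 0.05, 1 of 12 microglia sets was higher and 2 were lower in DBA. The summed intensity of this list was 7206 to 7922 in DBA and 7620 to 8657 in C57 brains. The Gapdh control sets at the 3' and 5' ends, whose ratio is a sign of RNA integrity, gave a log2 ratio (3' over 5') of -0.36 ± 0.06 in DBA and -0.24 ± 0.04 in C57 brains (SD, n = 4 and 5, exact 2-sided permutation p = 0.0159, 0.0635 adjusted over 4 control genes). The DBA and C57 ratios did not overlap. The mean log2 ratio was also lower in DBA for the other control genes: 0.66 ± 0.10 in DBA and 0.98 ± 0.25 in C57 brains for pyruvate carboxylase (exact permutation p = 0.0556), 0.56 ± 0.06 in DBA and 0.69 ± 0.15 in C57 brains for beta-actin (0.159), and 1.74 ± 0.11 in DBA and 1.88 ± 0.13 in C57 brains for the transferrin receptor (0.135). The part of these differences in the results below was not tested.

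Psmb6, Psmc2 and Usp38 were lower in DBA brain, and no member was called higher. Of the 113 probe sets, 99 from 77 genes were bright enough to test. With limma and a Benjamini-Hochberg adjusted p under 0.05 over all 9316 sets tested, 4 of the 99 (4.04%) from 3 genes were lower in DBA. Over all sets tested, 2.50% were called in either direction, 1.61% lower and 0.891% higher in DBA. At an unadjusted limma p under 0.05, 9 member sets (9.09%) passed, 4 higher and 5 lower in DBA, against 12.2% of all sets (5.88% higher and 6.29% lower). In 6 sets (6.06%) the strains did not overlap, 2 with every DBA value above and 4 with every DBA value below C57, against 6.45% of all sets (2.84% above and 3.61% below). The share of member sets without overlap lay near that of all sets and the share called lower lay above it, on 3 genes, and the difference between these shares was not tested. Leaving out a brain cannot make a set that stays tested overlap, so such a check can hardly lower the count without overlap. It was 11 without DBA animal 4 and 9 without DBA animal 2 or 3, and the matching shares of all sets are not given here. With an exact permutation test run set by set in place of limma, no set on the array passed the adjusted threshold, since the smallest adjusted p it gave was 0.179.

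The typical member differed little between the strains. The median difference (log2, DBA minus C57) was 0.02 over the 99 member sets and 0.01 over all sets, with 51 member sets above 0 and 48 below. The median size of the difference, sign aside, was 0.11 in members and 0.15 over all sets. The median within-strain SD was 0.18 in members and 0.24 over all sets, so the members were also measured with less spread. Of the 95 member sets not called, 75 had a 95% interval that lay wholly within 1.5-fold either way, and 93 had one within 2-fold. Of all 9083 sets not called, 5285 had one within 1.5-fold. Members were not compared with other sets of like brightness.

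**Figure D1:**
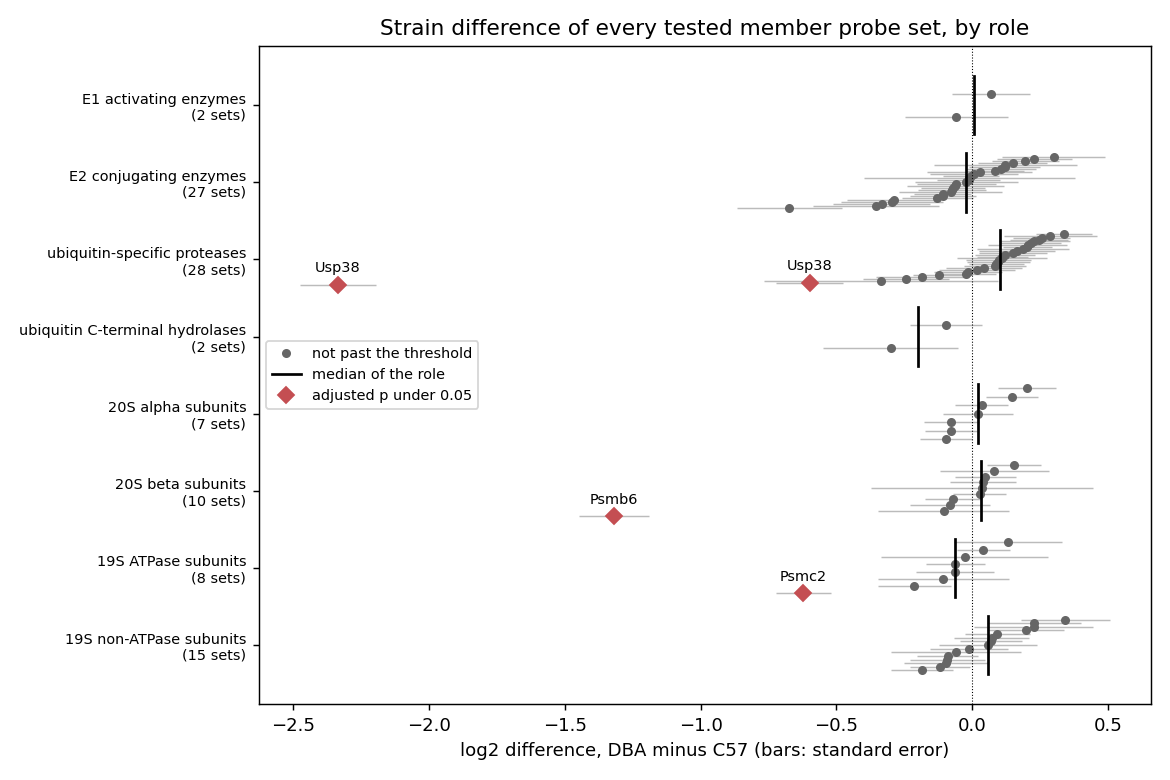
Strain difference of each tested probe set (log2, DBA minus C57) by role in the pathway. Each point is 1 of the 99 tested sets with its standard error, vertical bars are medians of a role, and red diamonds mark the 4 called lower in DBA. Most points lie near 0, and the set of Usp38 at -2.34 and the Psmb6 set at -1.32 lie farthest from it.

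The 3 genes called different are introduced with the sequence around their annotated starts, to show where RefSeq places the first base of their transcripts. Each window runs from 250 bases before to 50 bases after a start in the GRCm38.p6 mouse assembly, 5′ to 3′ on the gene's strand, and is the reference sequence, not that of either group. Capitals mark every match, on either strand, to 1 of 5 short promoter motifs: the CCAAT box (CCAAT), the GC box (GGGCGG), the core bound by ETS factors (CCGGAAG), the TATA box (TATAAA) and the core of the antioxidant response element (TGACNNNGC). Psmb6 lies at chr11:70525107-70525406 on the plus strand, Usp38 at chr8:81014857-81015156 on the minus strand, and Psmc2 has annotated starts in chr5:21785025-21785324 and chr5:21786497-21786796 on the plus strand.
Psmb6: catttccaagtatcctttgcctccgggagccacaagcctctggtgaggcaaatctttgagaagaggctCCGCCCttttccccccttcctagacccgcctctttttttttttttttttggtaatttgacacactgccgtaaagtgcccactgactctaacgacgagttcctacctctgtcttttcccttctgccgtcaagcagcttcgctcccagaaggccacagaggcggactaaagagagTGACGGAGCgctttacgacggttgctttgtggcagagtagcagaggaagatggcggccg
Usp38: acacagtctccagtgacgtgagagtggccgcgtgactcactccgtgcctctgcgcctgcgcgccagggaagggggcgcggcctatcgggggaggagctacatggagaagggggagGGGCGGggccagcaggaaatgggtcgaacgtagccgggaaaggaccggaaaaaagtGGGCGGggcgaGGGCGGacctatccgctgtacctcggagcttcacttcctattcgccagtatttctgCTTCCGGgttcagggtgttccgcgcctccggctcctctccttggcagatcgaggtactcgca
Psmc2, first window: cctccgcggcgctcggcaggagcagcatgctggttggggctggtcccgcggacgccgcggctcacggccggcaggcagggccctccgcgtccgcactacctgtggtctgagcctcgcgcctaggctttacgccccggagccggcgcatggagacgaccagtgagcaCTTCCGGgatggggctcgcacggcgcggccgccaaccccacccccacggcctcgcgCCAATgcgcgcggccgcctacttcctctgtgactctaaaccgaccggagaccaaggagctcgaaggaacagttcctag
Psmc2, second window: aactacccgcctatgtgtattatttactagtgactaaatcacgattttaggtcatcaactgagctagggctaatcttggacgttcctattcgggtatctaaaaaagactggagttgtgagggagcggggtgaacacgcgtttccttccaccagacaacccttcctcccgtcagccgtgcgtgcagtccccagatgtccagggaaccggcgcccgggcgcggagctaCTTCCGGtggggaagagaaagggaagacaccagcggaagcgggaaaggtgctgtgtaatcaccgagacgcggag

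The Psmb6 window holds 1 GC box, read on the reverse strand, and 1 antioxidant response element core, TGACGGAGC, whose first base lies 9 bases before the start. The Usp38 window holds 3 GC boxes and an ETS core. The first Psmc2 window holds a CCAAT box and an ETS core, and the second holds an ETS core. No window of the 3 genes holds a TATA box by these letters, and no 2 matches overlap. Over the 74 windows found for 66 of the 84 genes, 67.6% held a GC box, against 35.7% of all 32851 mouse windows of this length, and 29.7% held an ETS core, against 8.86%. The antioxidant response element core was in 18.9% of member and 12.4% of all windows, the CCAAT box in 29.7% and 37.4%, and the TATA box in 9.46% and 13.6%. Median GC content was 63.0% in member and 52.7% in all windows. A match is a run of letters and not a measured binding site.

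Psmb6 encodes the beta subunit with the caspase-like cutting site of the 20S core. Its probe set 101992_at read 671, 722, 707 and 587 in the 4 DBA brains, against 1446, 2106, 1585, 1675 and 1615 in the 5 C57 brains. All DBA values lay below all C57 values, with a wide gap between them. The geometric means were 670 in DBA and 1672 in C57 (log2 SD 0.13, n = 4, and 0.20, n = 5), a 2.50-fold lower level in DBA (log2 difference -1.32 ± 0.13, standard error, adjusted p = 3.73e-04).

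The beta subunits with the other cutting sites were not called. Psmb5, which carries the chymotrypsin-like site, differed by -0.08 ± 0.15 at 101558_s_at (95% interval -0.41 to 0.24) and by -0.11 ± 0.24 at 160559_at. Psmb7, which carries the trypsin-like site, read 2086 to 2335 in DBA and 2112 to 2580 in C57 brains at 94263_f_at. Its difference was -0.07 ± 0.10 (interval -0.30 to 0.16). The _s_at and _f_at endings mark sets whose probes may match more than 1 transcript or a family of similar sequences. Psmb1, Psmb2, Psmb3 and Psmb4, the beta subunits without a cutting site, ranged from 0.03 to 0.15 over their 6 tested sets. The Psmb4 set 98556_at was dim, with a wide interval of -0.88 to 0.95. Of all 10 beta sets tested, 6 lay above 0 and 4 below, with a median of 0.03.

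The 7 alpha subunits, Psma1 to Psma7, had 1 set each and the least spread of any role, with a median within-strain SD of 0.10. Their differences ran from -0.10 for Psma1 to 0.20 for Psma7, with 4 above 0, 3 below and a median of 0.02. Psma7 had the smallest p of them: it read 1783, 1640, 1819 and 1656 in DBA, against 1376, 1615, 1314, 1651 and 1566 in C57 brains. The ranges overlapped by a narrow margin (0.20 ± 0.11, adjusted p = 0.51). For all 7 subunits the 95% interval of the strain difference lay within 1.5-fold either way.

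**Figure D2:**
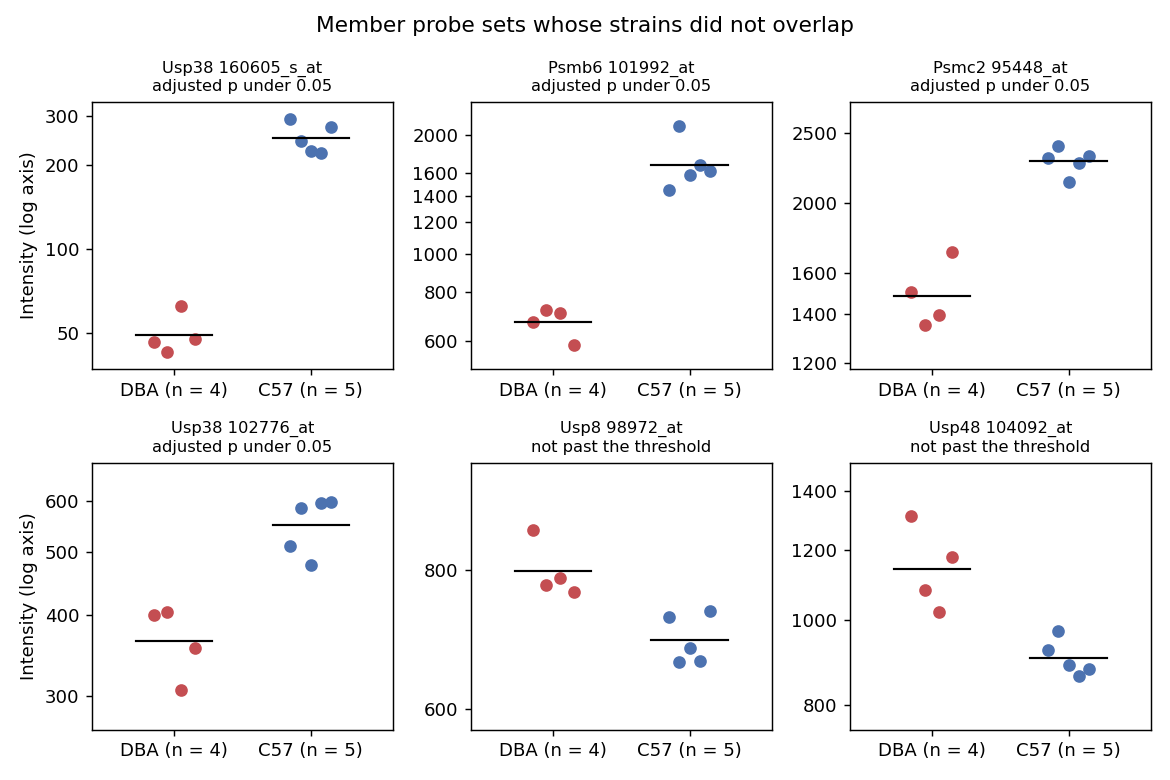
Intensity in each brain for the member sets whose strains did not overlap, 1 panel per set with DBA left of C57. Points are animals and bars are geometric means. Both Usp38 sets, Psmb6 and Psmc2 lie lower in DBA, and Usp48 and Usp8 lie higher without passing the adjusted threshold.

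Psmc2 encodes 1 of the 6 ATPases in the 19S cap, the ring that unfolds substrates and opens the core. Its set 95448_at read 1506, 1353, 1400 and 1709 in DBA, against 2310, 2401, 2140, 2270 and 2324 in C57 brains. The highest DBA value lay below the lowest C57 value. Geometric means were 1486 in DBA and 2287 in C57 (log2 SD 0.15, n = 4, and 0.06, n = 5), 1.54-fold lower in DBA (-0.62 ± 0.10, adjusted p = 0.00763).

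The other ATPases were not called. Psmc6 had the next largest difference among them, -0.21 ± 0.13 (3096 to 4078 in DBA, 3562 to 5003 in C57 brains, adjusted p = 0.605). The 3 tested sets of Psmc3 lay between -0.11 and -0.06, Psmc1 differed by 0.04 ± 0.10, and Psmc5 by 0.13 ± 0.20 at 160534_at. Psmc4 was dim, at 21.7 to 68.7 in DBA and 38.7 to 57.3 in C57 brains, and its interval of -0.72 to 0.66 leaves a wide range. Of the 8 ATPase sets 6 lay below 0, and 3 of these 6 are the sets of Psmc3. Over all sets tested, 48.3% lay below 0. The median of the 8 sets was -0.06, and it moved to -0.18 without DBA animal 1.

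The 19S subunits without ATPase activity recognise and strip the ubiquitin chain or help to assemble the cap, and none of their 15 tested sets from 13 genes was called or had an unadjusted limma p under 0.05. Psmd5, a chaperone that helps to build the ATPase ring, had the smallest p: 1306, 1181, 1266 and 1037 in DBA, against 1005, 1094, 654, 935 and 1093 in C57 brains (0.34 ± 0.16, adjusted p = 0.451). Only DBA animal 4 fell within the C57 range, and without C57 animal 3, the lowest, the difference was 0.21. The other assembly chaperones, Psmd9 and Psmd10, differed by 0.23 ± 0.22 and -0.01 ± 0.14. In Psmd9, DBA animal 3 read 765 and the other DBA brains 343 to 400, against 369 to 381 in C57 brains. Psmd4, a receptor for ubiquitin chains, differed by 0.23 ± 0.17, and Psmd14, the cap's own deubiquitinase, by -0.12 ± 0.11. The median of the 15 sets was 0.06, and it lay at -0.0007 without C57 animal 1 and at -0.03 without DBA animal 3.

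Usp38, a deubiquitinase, was lower in DBA at both of its sets, to very different degrees, and its set 160605_s_at had the largest difference of the 99 member sets. That set read 46.5, 42.8, 62.5 and 47.8 in DBA, against 293, 244, 224, 220 and 273 in C57 brains. Every DBA value was far below every C57 value. Geometric means were 49.4 in DBA and 249 in C57 (log2 SD 0.24, n = 4, and 0.18, n = 5), 5.05-fold lower in DBA (-2.34 ± 0.14, adjusted p = 1.76e-05). The DBA values lie within the range read for Alb, and whether they stand above background was not tested. The size of the fold depends on how low values are treated, and with 16 added to each intensity the log2 difference was -2.02.

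The second Usp38 set, 102776_at, read 399, 404, 306 and 356 in DBA, against 511, 586, 478, 594 and 598 in C57 brains. The strains again did not overlap, by a smaller margin. Geometric means were 364 in DBA and 551 in C57, 1.51-fold lower in DBA (-0.60 ± 0.12, adjusted p = 0.0333). This call was not kept without any 1 of the 4 DBA animals or without C57 animal 1, 2, 4 or 5 (adjusted p = 0.0535 to 0.0921), and was kept without C57 animal 3 (0.0333). It was not kept with median centring of the arrays (0.138), with quantile normalization (0.0513) or with dim sets left in (0.0677). The difference itself lay between -0.65 and -0.51 in every setting tried. Where the probes of either set lie on the Usp38 RNA was not analysed here, and the levels of the sets cannot be set against each other. The _s_at ending marks a set whose probes may match more than 1 transcript.

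Usp48 and Usp8 had every DBA value above every C57 value without passing the adjusted threshold. Usp48 read 1310, 1082, 1020 and 1178 in DBA, against 923, 971, 889, 863 and 879 in C57 brains (0.34 ± 0.10, adjusted p = 0.169). Usp8, which acts on receptors at endosomes, read 867, 775, 786 and 763 in DBA, against 725, 662, 681, 663 and 734 in C57 brains (0.20 ± 0.09, adjusted p = 0.41). Usp22, the deubiquitinase of the SAGA chromatin complex, differed by 0.26 ± 0.11 (1463 to 1633 in DBA, 1128 to 1502 in C57 brains, adjusted p = 0.353). Usp3, which acts on histones, differed by 0.25 ± 0.11 at 99085_at (adjusted p = 0.387), by 0.19 ± 0.17 at 99086_g_at and by -0.02 ± 0.13 at 99084_s_at.

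Across the ubiquitin-specific proteases, 28 sets of 20 genes were tested, and sets of the same gene are not independent. Of these sets, 20 lay above 0 and 8 below, with a median of 0.10, although both called sets lay below. Of all sets tested, 48.3% lay below 0, with a median of 0.01, and the protease sets were not tested against these. The protease median stayed between 0.07 and 0.14 when any 1 animal was left out. Usp14, which sits on the proteasome and trims chains there, differed by 0.10 ± 0.12 (943 to 1168 in DBA, 851 to 1092 in C57 brains). Usp5, which takes apart free ubiquitin chains, differed by 0.23 ± 0.13 (1375 to 1769 in DBA, 1096 to 1499 in C57 brains, adjusted p = 0.556). Usp7, known for acting on Mdm2 and p53, gave 0.12 ± 0.11 at 95481_at and -0.12 ± 0.09 at 95482_at. Usp33 and Usp39 lay below 0, at -0.18 ± 0.17 and -0.24 ± 0.16, and neither was called.

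The Uchl enzymes are small deubiquitinases, and Uchl1 is a protein long used to mark neurons. Uchl1 read 6113, 6763, 7260 and 5625 in DBA, against 5519, 7022, 6672, 7948 and 7369 in C57 brains. The ranges overlapped over most of their width (-0.10 ± 0.13, adjusted p = 0.849). Uchl5, which binds the 19S cap, read 284, 310, 309 and 489 in DBA, against 519, 428, 616, 294 and 318 in C57 brains (-0.30 ± 0.25, adjusted p = 0.726). Its values split within both strains: DBA animal 4 and C57 animals 1, 2 and 3 read 428 or more and the other 5 brains 284 to 318.

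Neither E1 enzyme measured works on ubiquitin as its main cargo. Uba3, the catalytic subunit of the enzyme that activates Nedd8, read 475 to 864 in DBA and 545 to 845 in C57 brains (-0.06 ± 0.19). Uba7, which activates Isg15, read 110 to 163 in DBA and 116 to 161 in C57 brains (0.07 ± 0.14, adjusted p = 0.911). For both, the strains overlapped almost entirely.

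None of the 27 tested sets of 20 E2 enzymes was called, and 1 had an unadjusted limma p under 0.05. That set is 93491_f_at of Ube2d3, an E2 that works with many E3 ligases. It read 829, 524, 528 and 936 in DBA, against 1286, 1122, 1070, 930 and 1048 in C57 brains. The DBA values fell into a higher and a lower pair, and the highest overlapped the lowest C57 value (-0.67 ± 0.19, adjusted p = 0.142). The other Ube2d3 set, 103754_at, differed by 0.11 ± 0.13. The _f_at ending marks a set whose probes can match a family of similar sequences, so which Ube2d transcripts it read cannot be told apart.

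Differences of the other E2 sets ran from -0.35 for Ube2w to 0.30 ± 0.19 for Ube2k at 92548_g_at. The other Ube2k set, 92547_at, had the opposite sign (-0.11 ± 0.10). Ube2n, which builds signalling chains with Ube2v1 or Ube2v2, differed by -0.13 ± 0.13, Ube2v1 by 0.08 ± 0.11 and Ube2v2 by -0.02 ± 0.19. Ube2a and Ube2b, the mammalian counterparts of yeast Rad6, differed by -0.07 ± 0.13 and -0.11 ± 0.12. Ube2c and Ube2s, which serve the anaphase-promoting complex of dividing cells, differed by -0.01 ± 0.39 and -0.29 ± 0.19, and Ube2f, an E2 for Nedd8, by 0.15 ± 0.13. Of the 27 sets, 10 lay above 0 and 17 below, with a median of -0.02, against 48.3% of all sets below 0. A 95% interval within 1.5-fold was found for 19 of the 27.

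The roles also varied from brain to brain within a strain. Each set was centred on its mean over the 9 arrays and the median was taken per role. Over all tested sets these medians were -0.0015, 0.01, 0.01 and 0.04 in DBA brains, against 0.09, -0.01, 0.05, -0.02 and -0.04 in C57 brains. Such shifts of a whole array were not subtracted from the medians of the roles. The E2 medians ran from -0.07 to 0.01 in DBA and from -0.09 to 0.13 in C57 brains. The protease medians were 0.15, 0.02, -0.01 and 0.06 in DBA brains, against 0.02, -0.04, -0.09, -0.13 and -0.05 in C57 brains. They overlapped only in that C57 animal 1 lay above DBA animals 2 and 3. The ATPase medians were 0.13, -0.01, -0.18 and -0.12 in DBA, against 0.03 to 0.09 in C57 brains, so that DBA animal 1 stood above all C57 brains and the other 3 DBA animals below. In the alpha subunits, C57 animals 1 and 3 were low (-0.13 and -0.18), with the DBA brains between -0.03 and 0.05 and the other C57 brains between 0.05 and 0.07.

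**Figure D3:**
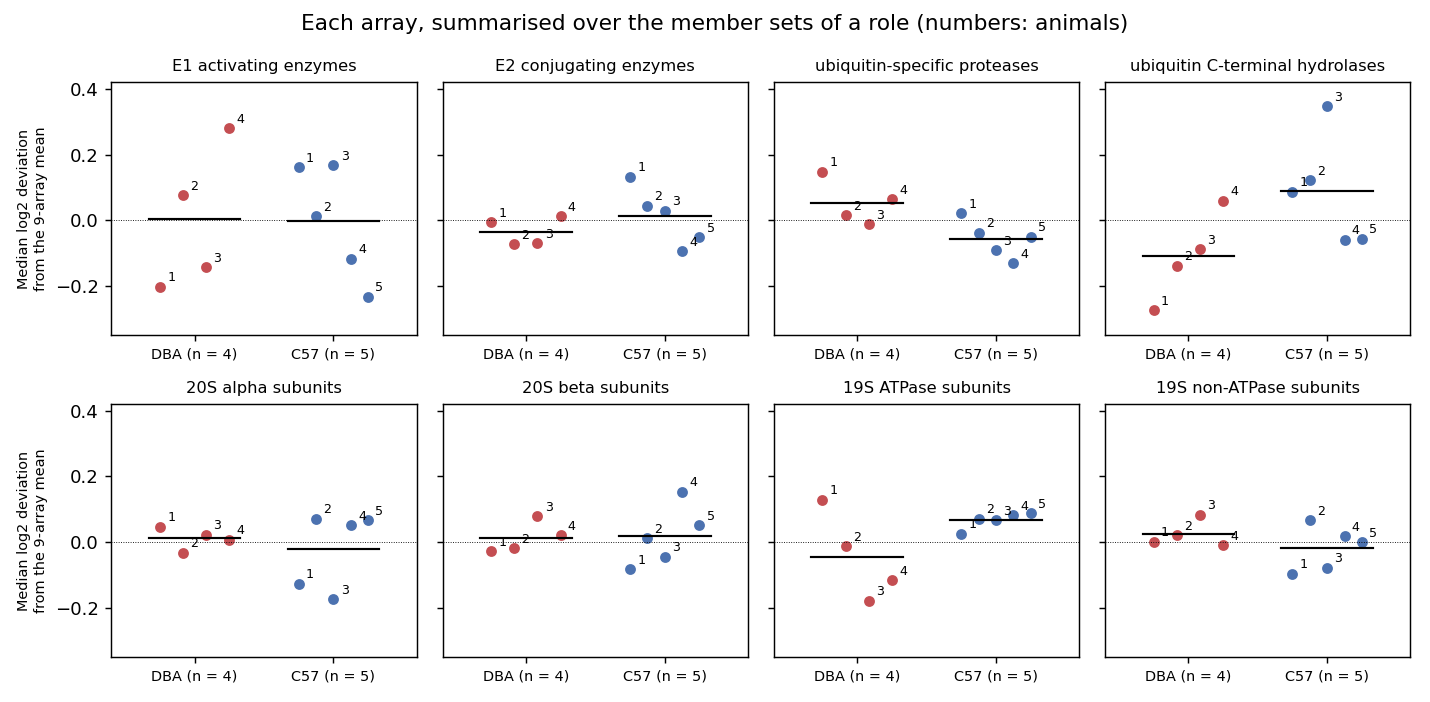
Median of the centred log2 values of each role's tested sets in every brain, with DBA left of C57 in each panel. Numbers are animals and bars are means over the animals of a strain. The strains overlap in every role shown, and the ubiquitin-specific proteases lie highest in DBA animal 1 (0.15) and lowest in C57 animal 4 (-0.13).

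For 18 genes with at least 2 tested sets, the sets of a gene can be set side by side as differences. All sets had the same sign in 8 genes and opposite signs in 10. The range between the sets of a gene had a median of 0.19, from 0.01 in Psmb4 and Ube2d2a to 1.74 in Usp38, and Ube2d3 had the second widest range, 0.78. Of the 3 called genes, Psmb6 and Psmc2 rest on 1 set each. Ube2o, a large enzyme with E2 and E3 activity, gave 0.01, -0.003 and 0.20 at its 3 sets, and Psmd11, a lid subunit, gave -0.06, -0.10 and 0.20.

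**Figure D4:**
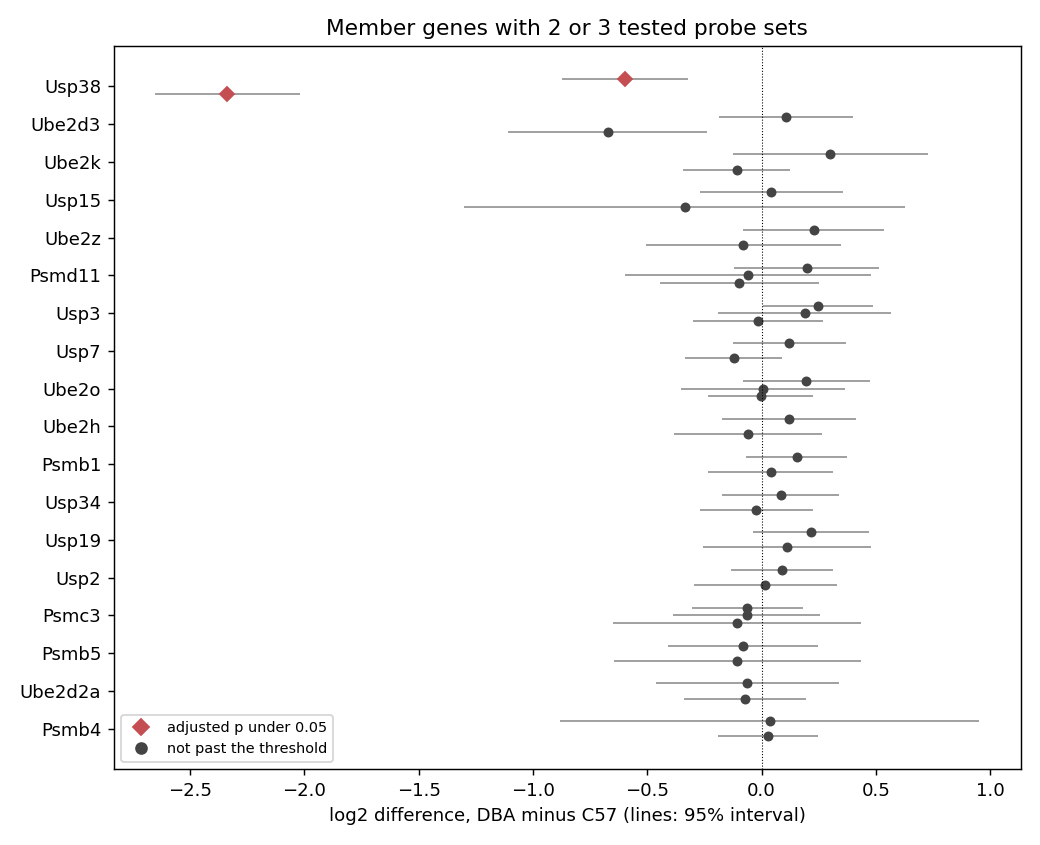
Strain differences (log2, DBA minus C57) for the 18 genes with at least 2 tested sets, 1 point per set with its 95% interval as a line. The sets of Usp38 lie far apart, at -2.34 and -0.60, and in 10 genes the sets lie on both sides of 0.

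The remaining 14 member sets were among the dimmest 25% of the array and were not tested, and 7 genes had no brighter set. These were Ube2l6 (16.4 to 73.1 in DBA and 16.5 to 59.9 in C57 brains), Usp12, Usp17la, Usp17lc, Usp42, Psmd2 and Psmc3ip. Psmd2 encodes a scaffold of the cap, and its set read 12.2 to 65.0 in DBA and 13.3 to 54.0 in C57 brains. A dim set shows that these probes gave little signal, and not that the gene is silent. The other 7 dim sets belong to Ube2v2, Usp14, Usp39, Usp4, Psmb1, Psmb4 and Psmc5, each of which had a tested set.

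The genes around the 3 called members were read in the same fit, as chosen after the members' values were seen. Of the 10 tested genes nearest to Psmb6 in RefSeq gene order, 5 on each side, none of 11 sets was called by limma, and 1 had an unadjusted p under 0.05. Around Usp38, 1 of 15 sets was called: Scoc, the third tested gene on one side, had geometric means of 703 in DBA and 1665 in C57 brains (-1.24 ± 0.14, adjusted p = 0.001). Around Psmc2, 1 of 12 sets was called: 93180_at of AI506816, the fifth tested gene on one side, was higher in DBA, with geometric means of 168 in DBA and 17.7 in C57 brains. Its C57 level lies under the limit of 35.4 for dim sets, so it entered the test through its DBA level and its fold is not given. The other AI506816 set, 97197_r_at, differed by -0.37 ± 0.25. At an unadjusted p under 0.05 there were 2 sets around Usp38 and 3 around Psmc2, counting the called ones. Over all sets tested, 2.50% were called and 12.2% had an unadjusted limma p under 0.05. Whether the neighbours depart from these shares was not tested.

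Beyond the member families, 6 lists of other ubiquitin and proteasome genes held 144 tested genes with 207 sets, of which 2 genes were called lower and none higher in DBA by limma. The called sets were 0.966% of the 207, against 2.50% of all sets. At an unadjusted p under 0.05, 5 of the 207 sets were higher and 10 lower in DBA, against 5.88% and 6.29% of all sets. Both called genes came from a list of 9 tested genes for deubiquitinases outside the Usp and Uchl families and for related proteases. Senp6, which removes the ubiquitin-like protein Sumo, read 192, 115, 145 and 153 in DBA, against 255, 254, 215, 252 and 275 in C57 brains (-0.75 ± 0.15, adjusted p = 0.0267). Otud7b, a deubiquitinase of the OTU family, read 245, 272, 240 and 224 in DBA, against 347, 505, 310, 441 and 426 in C57 brains at an _f_at set (-0.71 ± 0.15, adjusted p = 0.041). In both genes the strains did not overlap.

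None of the 51 tested E3 ligases was called. At an unadjusted p under 0.05, 2 of their 75 sets were higher and 1 lower in DBA, against 5.88% and 6.29% of all sets. Rnf2, a Polycomb ligase that acts on histones, had the smallest p, with 177 to 215 in DBA and 113 to 167 in C57 brains at 93164_at, without overlap (0.37 ± 0.13, adjusted p = 0.257), and gave -0.05 and 0.20 at its other sets. Among 41 genes for parts of the cullin ligases, Skp1, the adaptor that ties F-box proteins to the cullin, came nearest. Its set 99607_at read 2627, 2446, 2352 and 3250 in DBA, against 3496, 4303, 3632, 3869 and 3623 in C57 brains, without overlap (-0.51 ± 0.12, adjusted p = 0.067). Of 13 genes for proteasome activators and assembly factors, none was called, and Psme4, which encodes an activator that caps the core in place of 19S, had the smallest p (-0.67 ± 0.20, adjusted p = 0.154). None of the 8 genes for ubiquitin and related modifiers was called, nor any set of them at an unadjusted p under 0.05. Fau, which encodes a ubiquitin-like protein fused to a ribosomal protein, had the smallest p (-0.34 ± 0.19, adjusted p = 0.548). Of 22 genes for ubiquitin shuttles and the p97 unfoldase, none was called. Of their 36 sets, 1 was higher and 2 were lower at an unadjusted p under 0.05. Tollip, an adaptor that binds ubiquitin on endosomes, had the smallest p, at 160809_at (681 to 835 in DBA, 822 to 1267 in C57 brains, -0.39 ± 0.14, adjusted p = 0.254). The other Tollip set, 93886_at, differed by -0.15 ± 0.30 (adjusted p = 0.901).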

How the data were processed

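Whole-brain RNA of 4 DBA and 5 C57 mice was read on 9 arrays, 1 per animal number, and groups were taken from the sample titles. Per the labels, cRNA was made from 5 ug of total RNA by the array maker's usual procedure. The deposited intensities are on a linear scale, and the sources used here give neither the authors' software nor their normalization. With the top and bottom 2% of values left out, the mean of each array was 500.3, so every array had been scaled to 1 target. A second platform (18 arrays) was not used here.

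Of 12488 probe sets, 66 controls were left out. Intensities under the 1st percentile (1.70, 0.977% of values) were raised to it, log2 was taken, and the dimmest 25% of sets (mean intensity under 35.4) were left out. That left 9316 sets for limma 3.58.1 (R 4.3.3), run as lmFit with eBayes, 2-sided, DBA minus C57, with Benjamini-Hochberg adjustment over all of them. Every adjusted p is this fit's where no other test is named, and ± on a difference is its standard error. Precision is limited by the number of arrays. The fit was tested on simulated data.

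Gene symbols came from a platform annotation updated with the RefSeq gene table (GRCm38.p6), which also gave gene order, and promoter windows came from RefSeq. Full statistics were given for members past the threshold, members whose strains did not overlap and the smallest p in each role, and from each pathway list for genes past the threshold or, where none passed, the smallest p. The members, the lists and this rule were chosen with earlier results of these data known. The alternatives were other scaling, floors and filters, another variance model, a replicate block, 1 set per gene, a threshold of 0.01, an exact permutation test and dropping each animal in turn.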

Additional observations from a re-analysis of the deposited data

Results flagged for a closer look

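In 10 of 198 groups (99 tested member sets in each strain), 1 brain stood apart from the others of its strain, by Dixon's 95% limit on the gap to the next value as a share of the range. Chance flags about 1 in 20 such groups, so 10 is near the number that chance gives. Of the 10, 7 were in DBA and 3 in C57 brains.

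DBA animal 4 read 489 for Uchl5 at 100512_at (the other DBA brains 284 to 310), 2475 for Ube2n at 96959_at (1871 to 1934) and 239 for Usp3 at 99086_g_at (282 to 283). DBA animal 3 read 3108 for Psmd11 at 94796_at (2356 to 2452) and 3654 for Psma6 at 96952_at (3024 to 3058). DBA animal 1 read 2103 for Usp34 at 102647_g_at (1724 to 1745), and DBA animal 2 read 642 for Ube2k at 92548_g_at (948 to 983). C57 animal 1 read 1850 for Psmb3 at 94025_at (the other C57 brains 2259 to 2441) and 1717 for Psmd11 at 94796_at (2241 to 2488). C57 animal 5 read 2803 for Ube2r2 at 97460_at (2185 to 2281). None of these sets was called different between the strains by limma, where 9 member sets had an unadjusted p under 0.05, and no cause was tested.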

How the results depend on the processing

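Of 456 values recomputed under other settings, 428 kept their direction and side of the threshold (or moved by less than the limit set for a value without a test), 17 lost the threshold, 11 moved further and no called value changed sign. The medians of the E1, E2, 20S alpha, 20S beta and 19S non-ATPase sets, all near 0, did change sign when some single animal was left out. Psmb6 and Usp38 at 160605_s_at stayed called under every setting that tested them except the exact permutation test. Psmc2 also lost its call with a replicate block (adjusted p = 0.178, log2 difference -0.62 as before). Usp38 at 102776_at lost its call in 13 of 19 settings, among them median centring (0.138), quantile normalization (0.0513), no filter on dim sets (0.0677) and the replicate block (0.216). Member sets called, all lower in DBA, numbered 4, then 2 with the replicate block and 0 with the exact permutation test, and 3 to 4 when 1 animal was left out. Over all sets, calls numbered 233, then 73 with the replicate block, 154 with 1 set per gene and 0 with the exact permutation test, whose smallest possible p is 0.00794. Unadjusted, that test gave a p under 0.05 in 11 member sets and 1152 sets in all (12.4%). Member sets without overlap numbered 6 to 11 when 1 animal was left out, 11 without DBA animal 4, and for sets still tested this count cannot fall. The median difference of the 19S ATPases ran from -0.180 to -0.0205 and that of the other 19S subunits from -0.0261 to 0.0904 when 1 animal was left out. The cause of these shifts was not tested. The animal numbers do not pair the strains: the deviations of same-numbered brains correlated at -0.17 to -0.01 over 4 pairs, and none correlated best with its own number. All called values rest on 4 and 5 arrays and on intensities with no background or detection value used here.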
